A study of Oryctolagus cuniculus with 15 samples.

Results

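The nonfibrillar collagens described here are 9 genes taken from the 23428 of the deposited tables by their gene symbols, COL6A3, COL7A1, COL8A1, COL8A2, COL9A3, COL10A1, COL12A1, COL14A1 and COL23A1, and all 9 had enough reads to be tested in every comparison. Bulk RNA-seq was performed on primary corneal keratocytes, the resident cells of the corneal stroma, from New Zealand white rabbit eyes of a commercial supplier. The cells were used at first passage, unmodified and without added agents, in the same defined serum-free medium, and were harvested after 6 days with medium changes on days 2 and 5. The 5 culture conditions had 3 libraries each, 15 in all.

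Cells of the 2DC condition grew on dishes coated with bovine type I collagen and were incubated with collagenase-containing digestion medium before lysis. Cells of 2DC_L grew on the same coating and were lysed directly, so that the pair differs in the digestion step. Cells of 2DF grew on top of a fibrillar matrix of the same collagen, and cells of 3DF were embedded in it at 100000 cells per matrix. Cells of 3DF_50 were embedded at 50000 cells per matrix. Fibrillar matrices were digested to free the cells before lysis. RNA of several dishes or matrices was pooled into each library, and the labels do not say which rabbits the cells of a library came from.

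Fibrillar collagens such as types I and V form the banded fibrils of the stroma, and the nonfibrillar collagens organize what lies on, between and beneath these fibrils. Types IX, XII and XIV are fibril-associated collagens that sit on the surface of fibrils, types VIII and X are short-chain collagens that assemble into open networks, and type VI forms beaded filaments between fibrils. Type VII builds the anchoring fibrils that fasten the epithelial basement membrane to the stroma, and type XXIII spans the plasma membrane and is shed from the cell surface.

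Between 14626982 and 31804255 reads were counted per library, with the lowest totals in 3DF_50. Coordinates are those of the oryCun2 build that the files give. COL7A1 lies on chromosome 9 at 16264230 to 16293878, COL8A1 on chromosome 14 at 120913933 to 121077408, COL10A1 on chromosome 12 at 104300773 to 104308533 and COL12A1 on the same chromosome at 61958742 to 62087011. COL14A1 at 135955143 to 136207123 and COL23A1 at 58330673 to 58640681 are on chromosome 3. The other members are on unplaced scaffolds: COL6A3 on Un0142 at 399751 to 453027, COL8A2 on Un0006 at 2214598 to 2239081, and COL9A3 on Un0774 at 43 to 7610. The COL9A3 model begins 43 bases into a scaffold that holds 4 genes and counts 1513 bases of exon, so it may cover only part of the gene.

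The labelled cell type was checked against marker lists. All 7 keratocyte markers with a row in the tables (KERA, LUM, DCN, OGN, ALDH1A1, TKT and AQP1) were expressed in every library, with a lowest value of 92.4 FPKM for AQP1, and their FPKM summed to between 21654 and 43465 per library. The 8 corneal epithelium markers with a row summed to 7.82 to 12.8 FPKM in the 3DF libraries, against 0.162 to 1.21 for 2DC, 0.226 to 1.11 for 2DC_L, 0.767 to 6.29 for 2DF and 0.0786 to 5.97 for 3DF_50, and the differentiation keratin KRT12 had no read in 2DC and 2DC_L. Among corneal endothelium markers ZP4 had no read in any library, while the 8 genes of that list summed to between 124 and 325 FPKM. Immune markers summed to 2.21 to 8.42, vascular endothelium markers to 32.9 to 119 (mainly KDR) and Schwann cell markers to 1.70 to 3.94 FPKM.

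Levels across genes are compared in FPKM, reads scaled by gene length and by library size. COL6A3, with a mean of 1161 FPKM over the 15 libraries, and COL12A1, with 815 FPKM, were the most abundant members and stood in the 99.9th and 99.8th percentile of all genes. COL14A1 (265 FPKM), COL8A2 (243 FPKM) and COL8A1 (77.9 FPKM) followed. COL9A3 averaged 8.95 FPKM, COL7A1 4.59, COL10A1 1.40 and COL23A1 1.19. The ratio of the highest to the lowest condition mean was 7.24 for COL14A1, 6.88 for COL10A1, 6.34 for COL9A3, 4.98 for COL8A2, 3.95 for COL8A1, 3.28 for COL12A1, 3.13 for COL23A1, 2.87 for COL7A1 and 1.29 for COL6A3. In an F test over the 5 conditions together (edgeR's quasi-likelihood test, Benjamini-Hochberg adjustment over all genes), 8 of 9 members passed, against a background of 41.8% of all genes tested. Such counts of members beside the background are descriptions, because the members were not chosen blind to these data. COL6A3 did not pass (adjusted p = 0.323).

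**Figure D1:**
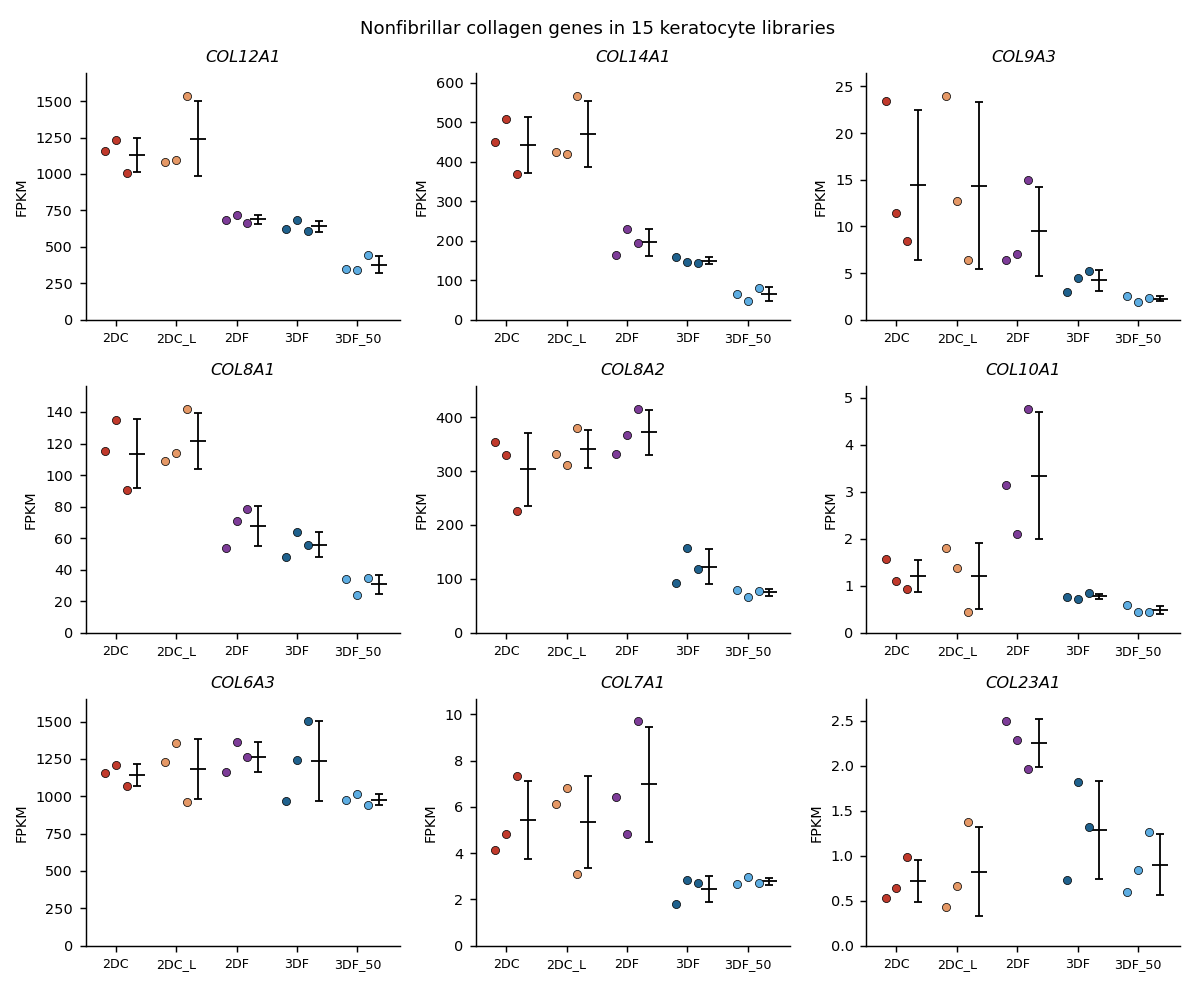
FPKM of each of the 9 collagen genes (vertical axis, from 0) in the 15 libraries, grouped by culture condition (horizontal axis), with points for libraries and a bar for the mean ± SD of 3 libraries. COL12A1, COL14A1 and COL8A1 step down from the coated dishes through 2DF and 3DF to 3DF_50, COL8A2 stays high in 2DF, COL10A1 and COL23A1 peak in 2DF, and COL6A3 spans only 942 to 1501 FPKM.

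Of the fibril-associated members, COL12A1 and COL14A1 are the stromal types, which bind fibril surfaces and influence fibril spacing. COL12A1 FPKM was 1155, 1231 and 1004 in the 2DC libraries, 1085, 1099 and 1537 in 2DC_L, and 681, 722 and 662 in 2DF. In 3DF it was 623, 685 and 611, and in 3DF_50 348, 340.2 and 446. All 6 libraries from coated dishes lay above all 9 from fibrillar collagen, and all 3 of 3DF_50 lay below the rest. The means were 1129.7 ± 116 (SD, n = 3 here and below) in 2DC, 688 ± 30.5 in 2DF, 640.02 ± 39.6 in 3DF and 378 ± 58.7 in 3DF_50. In 3DF against 2DC the log2 fold change of COL12A1 was -0.83 (SE 0.15, adjusted p = 0.0079) and in 2DF against 2DC -0.71 (SE 0.14, adjusted p = 0.0115), both past the limit on p but under the 1 log2 unit that a call also needs. The call was reached in 3DF_50 against 2DC (-1.58, SE 0.15, adjusted p = 8.0e-05). 2DF and 3DF, neighbours in the order of means, overlapped, and 3DF against 2DF gave no call (log2 fold change -0.10, SE 0.17, adjusted p = 0.769).

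COL14A1 FPKM was 449.9, 509 and 368 in 2DC, 424, 421 and 567 in 2DC_L, and 164, 231 and 194 in 2DF. It was 160.0, 146 and 144 in 3DF, and 66.2, 47.3 and 81.7 in 3DF_50. No library of the coated dishes overlapped a library on fibrillar collagen, and 2DF, 3DF and 3DF_50 did not overlap each other. COL14A1 fell in 3DF against 2DC by 1.57 on the log2 scale (SE 0.15, adjusted p = 0.000485) and in 2DF against 2DC by 1.17 (SE 0.17, adjusted p = 0.00271). It was higher in 3DF than in 3DF_50, with a log2 fold change of 1.18 (SE 0.19, adjusted p = 0.0393). That last call was lost without 3DF replicate 3 (adjusted p = 0.0662), without 3DF_50 replicate 1 (0.126) and without 3DF_50 replicate 2 (0.15). COL14A1 was called in 8 of the 10 pairs of conditions, the highest number among the members, the exceptions being 2DC against 2DC_L and 3DF against 2DF (-0.38, SE 0.17, adjusted p = 0.218).

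COL9A3, a chain of the type IX collagen known from cartilage and vitreous, varied widely between libraries of a condition. Its FPKM was 23.5, 11.4 and 8.39 in 2DC, 24.0, 12.7 and 6.39 in 2DC_L, and 6.41, 7.03 and 14.96 in 2DF. It was 3.00, 4.44 and 5.24 in 3DF and 2.55, 1.96 and 2.32 in 3DF_50, so that every library of embedded cells was below every other library. Library names carry a prefix (E2, E3 and so on) that the labels do not explain, and 2DC and 2DC_L replicate 1 share E2 while replicate 2 of both share E3. COL9A3 was alike within these prefixes (23.5 and 24.0, then 11.4 and 12.7 FPKM) and differed between them. COL9A3 fell in 3DF against 2DC by 1.79 on the log2 scale (SE 0.38, adjusted p = 0.0158) and in 3DF_50 against 2DC_L by 2.67 (SE 0.42, adjusted p = 0.000712). With the prefix as a term in the fit of all 5 conditions these changes were -1.12 (adjusted p = 0.018) and -1.95 (adjusted p = 0.000748). In 3DF against 2DF the log2 fold change was -1.16 (SE 0.34, adjusted p = 0.0758), which passed with DESeq2 (adjusted p = 0.0079) and without the filter on low counts (adjusted p = 0.0212).

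The assembly partners of this chain were scarce. COL9A1 had no read outside 1 library of 2DC, and COL9A2 averaged 0.983 ± 0.522 FPKM in 2DC, 1.22 ± 0.747 in 2DF, 0.487 ± 0.173 in 3DF and 0.299 ± 0.0907 in 3DF_50. COL9A2 was called lower in 3DF_50 against 2DC (-1.72, SE 0.47, adjusted p = 0.0192), against 2DC_L (-1.66, SE 0.42, adjusted p = 0.0103) and against 2DF (-1.99, SE 0.51, adjusted p = 0.0265). It was not called in 3DF against 2DC (-1.04, SE 0.46, adjusted p = 0.178).

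Among the network-forming members, COL8A1 and COL8A2 encode the chains of type VIII collagen, the main component of the hexagonal lattice of Descemet's membrane. COL8A1 FPKM was 115, 135 and 90.8 in 2DC, 109, 114 and 142 in 2DC_L, and 53.5, 71.1 and 78.4 in 2DF. It was 48.0, 64.1 and 55.5 in 3DF and 33.9, 23.8 and 34.7 in 3DF_50. The coated dishes were above all libraries on fibrillar collagen, 2DF and 3DF overlapped, and 3DF_50 was below both. COL8A1 fell in 3DF against 2DC by 1.03 on the log2 scale (SE 0.18, adjusted p = 0.0063), just past the limit of 1. Its change was -0.89 without 2DC replicate 2, -0.93 without 3DF replicate 1 and -0.85 when libraries were scaled by their totals only, each under that limit. In 2DF against 2DC the log2 fold change of COL8A1 was -0.74 (SE 0.17, adjusted p = 0.0231).

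COL8A2 FPKM was 354, 330.2 and 227 in 2DC, 332, 311 and 379 in 2DC_L, and 332, 367 and 416 in 2DF. It was 92.0, 157 and 119 in 3DF and 79.9, 66.5 and 77.7 in 3DF_50. All 9 libraries of cells on a surface, coated or fibrillar, were above all 6 of embedded cells. COL8A2 fell in 3DF against 2DC by 1.31 on the log2 scale (SE 0.24, adjusted p = 0.00793) and in 3DF against 2DF by 1.60 (SE 0.21, adjusted p = 0.00218). In 2DF against 2DC its log2 fold change was 0.30 (SE 0.17, 95% interval -0.095 to 0.69, adjusted p = 0.286). Both calls of COL8A2 held in every fit that left out a library, with changes from -1.54 to -1.14 against 2DC and from -1.83 to -1.43 against 2DF.

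The chains of type VIII collagen thus had unlike levels on the surface of fibrillar collagen, where COL8A1 was between the coated and the embedded conditions and COL8A2 was not below the coated ones. The ratio of COL8A2 to COL8A1 FPKM was 6.21, 5.17 and 5.31 in the 2DF libraries and between 1.92 and 3.08 in the other 12. Its mean was 5.56 ± 0.567 for 2DF, against 2.67 ± 0.351 for 2DC, 2.81 ± 0.203 for 2DC_L, 2.17 ± 0.272 for 3DF and 2.46 ± 0.29 for 3DF_50. The ratio of COL12A1 to COL14A1 had another order, with 2.57 ± 0.155 for 2DC as its lowest mean and then 2.63 ± 0.0779 for 2DC_L, 3.57 ± 0.536 for 2DF, 4.28 ± 0.402 for 3DF and 5.97 ± 1.07 for 3DF_50. Both ratios were chosen after the levels were seen and are given as descriptions without a test.

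**Figure D2:**
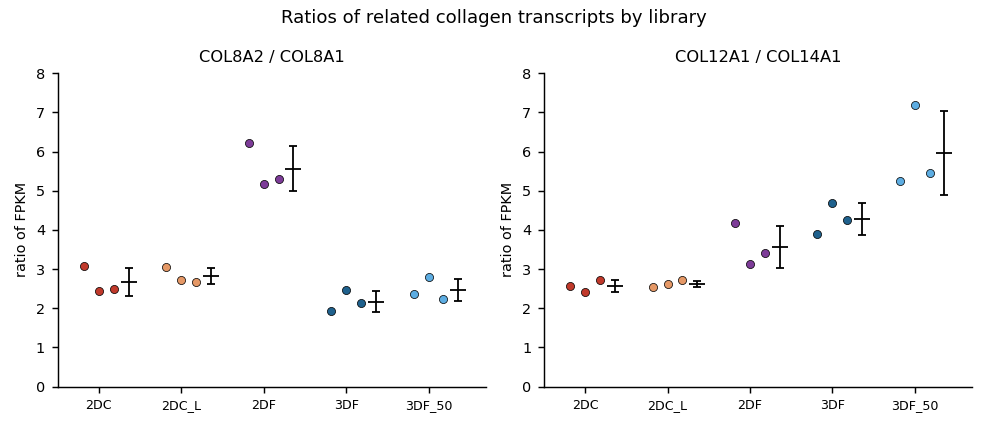
Ratio of FPKM within a library (vertical axes, from 0) for COL8A2 over COL8A1 and for COL12A1 over COL14A1, by culture condition (horizontal axes), with points for libraries and a bar for the mean ± SD of 3. The 2DF libraries lie at 5.17 to 6.21 in the first ratio, above the other 12, and the second ratio rises from 2.42 at the lowest in 2DC to 7.20 at the highest in 3DF_50.

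COL10A1 encodes the short-chain collagen of hypertrophic cartilage. It was read at 23 to 265 counts per library, and its FPKM was 1.58, 1.11 and 0.934 in 2DC, 1.81, 1.37 and 0.435 in 2DC_L, and 3.14, 2.09 and 4.77 in 2DF. It was 0.761, 0.719 and 0.837 in 3DF and 0.585, 0.439 and 0.43 in 3DF_50. The 2DF libraries were above all others. COL10A1 rose in 2DF against 2DC with a log2 fold change of 1.46 (SE 0.32, adjusted p = 0.0167), a call that was lost without 2DC replicate 2 (adjusted p = 0.0751) and without 2DF replicate 1 (adjusted p = 0.0531). It fell in 3DF against 2DF by 2.10 (SE 0.30, adjusted p = 0.00331) and kept this call whichever library was left out. In 3DF against 2DC its change was -0.66 (SE 0.26, adjusted p = 0.135). Against the directly lysed dishes the call in 2DF (1.43, SE 0.43, adjusted p = 0.0376) was lost with DESeq2 (adjusted p = 0.0906) and without any of 4 libraries, 2DC_L replicates 2 (0.0763) and 3 (0.0574) and 2DF replicates 1 (0.0832) and 3 (0.123).

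COL6A3 encodes the largest chain of type VI collagen, whose filaments link fibrils and cells. Its FPKM was 1153, 1212 and 1067 in 2DC, 1229, 1359 and 962 in 2DC_L, and 1161, 1363 and 1265 in 2DF. It was 966, 1246 and 1501 in 3DF and 972, 1014 and 942 in 3DF_50. The conditions overlapped except that 3DF_50 lay below all libraries of 2DC and 2DF. No pair of conditions gave a call, and the 95% interval of the log2 difference ran from -0.32 to 0.53 in 3DF against 2DC and from -0.16 to 0.45 in 2DF against 2DC. The sign of the small COL6A3 differences was not stable, since 3DF_50 against 2DC gave -0.23 here and 0.13 with scaling by library totals only. The chains that assemble with it were also not called in any pair. COL6A1 averaged 1698 ± 231 FPKM in 2DC, 2044 ± 359 in 2DF, 2034 ± 323 in 3DF and 1589 ± 105 in 3DF_50, and COL6A2 1592 ± 259, 1971 ± 453, 2044 ± 217 and 1534 ± 109 in the same order. The ratio of COL6A3 to COL6A1 stayed between 0.573 and 0.745 over the 15 libraries. The alternative type VI chains COL6A5 and COL6A6 were below 0.09 FPKM in every library and were not tested.

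COL7A1 FPKM was 4.13, 4.84 and 7.34 in 2DC, 6.13, 6.83 and 3.09 in 2DC_L, and 6.42, 4.82 and 9.69 in 2DF. It was 1.78, 2.82 and 2.70 in 3DF and 2.65, 2.96 and 2.71 in 3DF_50, so that all 6 libraries of embedded cells were below the other 9 in FPKM. By share of counted reads this separation did not hold. There 2DC_L replicate 3 (0.00265%) was below every embedded library except 3DF replicate 1 (0.00172%). COL7A1 fell in 3DF against 2DF by 1.52 on the log2 scale (SE 0.26, adjusted p = 0.00818), and this call held whichever library was left out. It fell in 3DF against 2DC by 1.17 (SE 0.25, adjusted p = 0.0157), a change that was -0.88 without 2DC replicate 3 and -0.98 without 3DF replicate 1, under the limit of 1. The 2 embedded conditions overlapped (log2 difference of 3DF over 3DF_50 -0.22, SE 0.18, adjusted p = 0.531).

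COL23A1 had 32 to 134 counts per library. Its FPKM was 0.532, 0.636 and 0.986 in 2DC, 0.429, 0.657 and 1.38 in 2DC_L, and 2.49, 2.29 and 1.97 in 2DF. It was 0.727, 1.81 and 1.32 in 3DF and 0.591, 0.843 and 1.26 in 3DF_50. The 2DF libraries were above all others in FPKM, and the other 4 conditions overlapped. By share of counted reads 3DF replicate 2 (0.000603%) was slightly above 2DF replicate 3 (0.000594%). COL23A1 rose in 2DF against 2DC with a log2 fold change of 1.66 (SE 0.27, adjusted p = 0.00475), a call kept whichever library was left out. With limma on log2(FPKM + 1), a scale that shrinks changes of low genes, the COL23A1 change was 0.92, under the limit. In 3DF against 2DC the change was 0.84 (SE 0.38, 95% interval -0.041 to 1.72, adjusted p = 0.19), and without 3DF replicate 1 it was 1.13 (adjusted p = 0.0449). In 3DF against 2DF it was -0.80 (SE 0.31, adjusted p = 0.171).

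The comparison of 3DF with 2DC asks how embedding in a fibrillar matrix differs from growth on a coated dish. Dimensionality, fibrillar structure, stiffness and cell density differ together in this pair and cannot be told apart. COL7A1, COL8A1, COL8A2, COL9A3 and COL14A1 were lower in 3DF, COL12A1 was lower without reaching 1 log2 unit, and none of the 9 was called higher. Thus 5 of 9 members were called, against 7.56% of all genes tested in either direction and 4.32% in the lower direction. FPKM of the conditions did not overlap for 7 members, against 37.8% of all genes. The median log2 fold change of the members was -1.03, and that of all genes was 0.012. The 3DF libraries also held more corneal epithelium transcripts than 2DC (4 of 5 markers tested, KRT3, KRT5, KRT12 and CDH1, called higher). Markers of the corneal endothelium, the cell layer on Descemet's membrane, had a lower summed level in 3DF, with 6 of 7 tested at negative log2 fold changes. Their FPKM summed to 264 to 301 in 2DC and 210 to 223 in 3DF, with SLC4A4 called lower (59.5 against 24.8 FPKM) and ALCAM at 58.5 against 30.8 FPKM (log2 fold change -0.94, adjusted p = 0.00946). In 2DF the same markers summed to 173 to 207 FPKM, and in 3DF_50 to 124 to 162. Vascular endothelium markers, mainly KDR, summed to 32.9 to 62.5 FPKM in 2DC and 117 to 119 in 3DF. In 3DF_50 KRT12 had reads in replicate 3 only (2.13 FPKM). The part of these other cell types in the levels of the collagens was not tested. In bulk RNA, fewer cells of a type and less RNA per cell cannot be told apart.

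The comparison of 2DF with 2DC concerns fibrillar structure with the cells on a surface in both conditions. The paper names stiffness as a possible confounder of this pair, and structure and stiffness cannot be told apart here. It also cites earlier work that found no significant difference in the phenotype of such cells between 2D stiffnesses. COL10A1 and COL23A1 rose and COL14A1 fell, and COL8A1 and COL12A1 were lower by less than 1 log2 unit. These 3 of 9 members called compare with 4.96% of all genes tested, 2.04% of them called higher and 2.93% lower. FPKM did not overlap for 5 members, against 35.2% of all genes, and the members' median log2 fold change was 0.15 (0.0045 over all genes). With the library prefix as a term no member was called: COL10A1 had 2.10 (adjusted p = 0.267), COL23A1 1.17 (0.448) and COL14A1 -0.90 (0.413). 2DF shares only prefix E5 with another condition, 3DF_50, so that prefix and condition are largely confounded there.

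The comparison of 3DF with 2DF sets embedded cells against cells on top of the same fibrillar collagen. The paper states that effective cell density was lower in 3D, so dimensionality and density cannot be told apart in this pair. It adds that a change of density within 3D culture altered the transcriptional profile minimally. COL7A1, COL8A2 and COL10A1 fell, and all 9 members had negative log2 fold changes, from -2.10 for COL10A1 to -0.026 for COL6A3, with a median of -0.80 against 0.011 for all genes. These 3 of 9 members compare with 3.78% of all genes tested in either direction and 1.69% in the lower one, and the 6 whose FPKM did not overlap with 29.3%. With the prefix term none was called, with log2 fold changes of -1.36 for COL7A1 (adjusted p = 0.621), -1.43 for COL8A2 (0.145) and -2.04 for COL10A1 (0.362).

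Cell density in the matrix was compared between 3DF and 3DF_50. COL14A1 alone was called, 1 of 9 members, against 0.452% of all genes in either direction and 0.316% in the higher one. For 6 members, COL8A1, COL8A2, COL9A3, COL10A1, COL12A1 and COL14A1, every 3DF library was above every 3DF_50 library, where 29.4% of all genes did not overlap in either direction. The log2 differences of the 5 uncalled members among these lay between 0.65 for COL10A1 (SE 0.27, adjusted p = 0.229) and 0.86 for COL9A3 (SE 0.25, adjusted p = 0.13). COL9A3 was called without 3DF replicate 1 (1.06, adjusted p = 0.0387).

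In 3DF_50 against 2DC_L, which shares no library with 3DF against 2DC, 6 of 9 members were called, all lower, against 13.5% of all genes tested in either direction and 8.47% in the lower one. FPKM did not overlap for 6 members, against 55.2% of all genes. The log2 fold changes were -2.85 for COL14A1 (SE 0.22, adjusted p = 8.7e-06), -2.19 for COL8A2 (SE 0.13, adjusted p = 1.6e-06), -1.98 for COL8A1 (SE 0.16, adjusted p = 1.2e-05) and -1.71 for COL12A1 (SE 0.19, adjusted p = 8.7e-05). COL9A3 is given above. COL10A1 was lower by 1.35 with an adjusted p of 0.0338, a call that was lost when any of 5 libraries was left out, where its adjusted p was 0.143 without 2DC_L replicate 1, 0.0837 without 2DC_L replicate 2, and 0.0592, 0.102 and 0.093 without 3DF_50 replicates 1, 2 and 3. Matrix, cell density and digestion differ together in this pair and cannot be told apart. Name prefixes recur across this pair and 3DF against 2DC, with E2 and E3 in both 2DC and 2DC_L, and E7 in 3DF, 3DF_50 and 2DC_L. The comparisons may therefore not be separate.

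**Figure D3:**
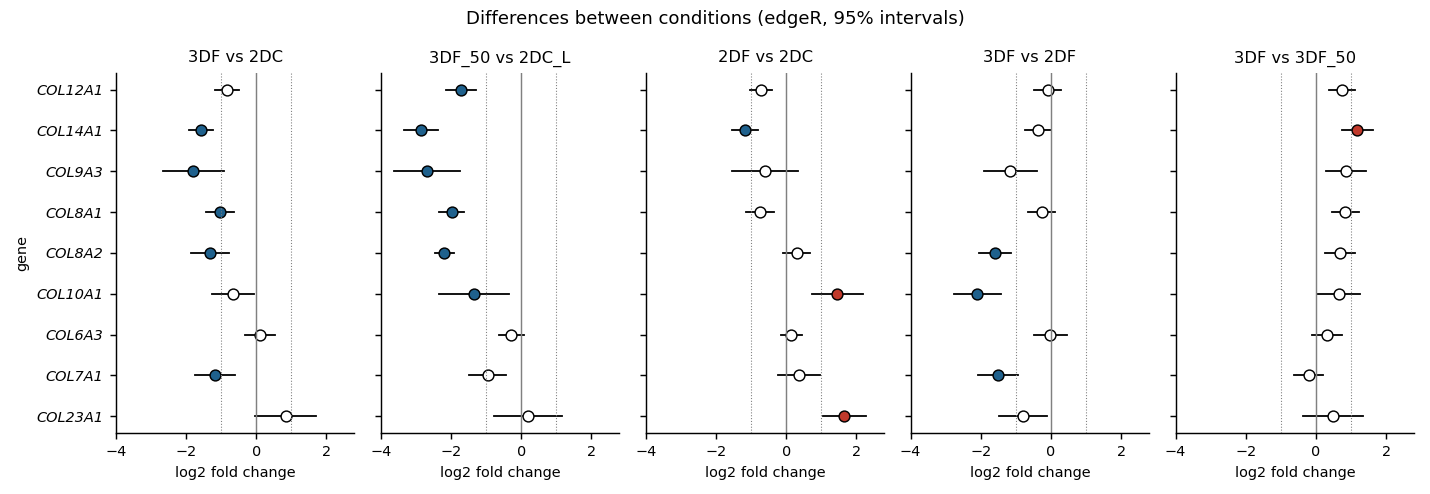
Log2 fold change of each collagen gene with its 95% interval (horizontal axes) in 5 comparisons of conditions from edgeR. Filled points were called (blue lower, red higher in the condition named first), open points were not, and dotted lines mark a change of 1 log2 unit. COL14A1 is lower in 3DF vs 2DC, 3DF_50 vs 2DC_L and 2DF vs 2DC, and the intervals of COL6A3 include 0 in all 5.

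The remaining pairs gave the following counts. In 3DF_50 against 2DC 6 of 9 members were lower (11.6% of all genes called, 7.33% lower) and 8 did not overlap (51.7% of all genes), the uncalled members being COL6A3, COL7A1 (-0.97, SE 0.19, adjusted p = 0.00418) and COL23A1, of which COL23A1 alone overlapped. In 3DF_50 against 2DF 7 of 9 were lower (4.45% of all genes called, 3.01% lower) and all 9 did not overlap (30.9% of all genes), the uncalled members being COL6A3 and COL12A1 (-0.85, SE 0.16, adjusted p = 0.0049). COL8A1 in this pair was at -1.12, and at -0.96 without 3DF_50 replicate 2. In 3DF against 2DC_L 5 of 9 were lower (10.2% of all genes called, 5.98% lower) and 6 did not overlap (44.8% of all genes), the called members being COL7A1, COL8A1, COL8A2, COL9A3 and COL14A1. The COL7A1 call there (-1.14) was lost without 2DC_L replicate 1 (adjusted p = 0.072), without 2DC_L replicate 2 (0.0807) and without 3DF replicate 1 (-0.96). In 2DF against 2DC_L COL10A1 and COL23A1 were higher and COL14A1 was lower, 3 of 9 (7.39% of all genes called, 2.93% higher and 4.46% lower), and 5 did not overlap (40.6% of all genes). The COL23A1 call (1.51, SE 0.37, adjusted p = 0.0158) was lost without 2DC_L replicate 2 (0.0569) and without 2DF replicate 1 (0.0524).

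The digestion step was compared between 2DC and 2DC_L. None of the 9 members was called with edgeR (0 at an unadjusted p of 0.05, and 0 with DESeq2), against 0.265% of all genes. The log2 differences lay between -0.17 and 0.0089, their 95% intervals between -1.17 and 1.13, and the smallest unadjusted p was 0.359. The conditions overlapped for all 9 members, where 12.8% of all genes did not overlap. The intervals lay between -0.56 and 0.30 for COL6A3, COL8A1, COL8A2, COL12A1 and COL14A1 and between -0.69 and 0.70 for COL7A1, and those of COL9A3, COL10A1 and COL23A1 reached past 1 log2 unit in at least 1 direction. The test did not use that replicates 1 and 2 of both conditions share a prefix. Within these pairs COL7A1 FPKM was higher in 2DC_L by 0.57 and 0.50 on the log2 scale, while replicates 3, of different prefixes, differed the other way (7.34 in 2DC and 3.09 in 2DC_L). The other members differed within the pairs by -0.31 to 0.31, and with the prefix as a term none of the 9 was called.

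The share of all counted reads that the 9 genes took together was 2.40% ± 0.159 for 2DC, 2.57% ± 0.155 for 2DC_L, 2.05% ± 0.0905 for 2DF, 1.90% ± 0.258 for 3DF and 1.48% ± 0.0471 for 3DF_50. COL6A3 and COL12A1 made up between 79.3% and 93.8% of these reads.

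**Figure D4:**
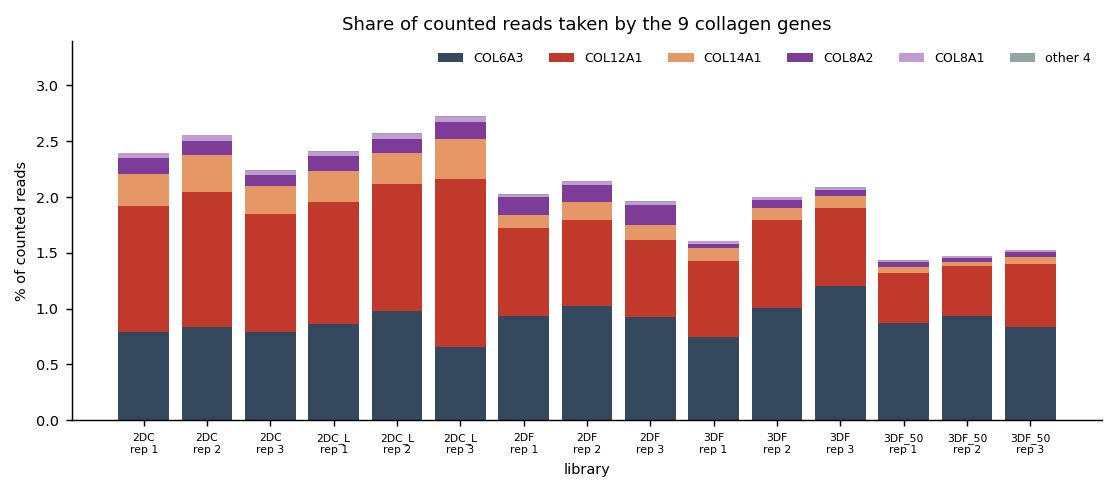
Share of counted reads (vertical axis, percent, from 0) taken by the 9 collagen genes in each of the 15 libraries (horizontal axis), stacked by gene. The coated dishes reach 2.24% to 2.72% and the 3DF_50 libraries 1.43% to 1.53%, with the COL12A1 and COL14A1 bands narrower and the COL6A3 band of similar height.

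Libraries with the same name prefix allowed a comparison within prefixes, as a description. Over the 5 pairings of a library of embedded cells with a library from a coated dish of the same prefix, COL7A1, COL8A1, COL8A2, COL9A3, COL12A1 and COL14A1 were lower in the embedded cells in 5 of 5. COL6A3, COL10A1 and COL23A1 were lower in 4 of 5. These directions are in FPKM, and small ones turned when libraries were compared by share of counted reads. COL23A1 and COL6A3 shares were higher in 3DF_50 replicate 1 than in 2DC replicate 2 (0.000219% against 0.000181%, 0.872% against 0.837%). The COL23A1 share of 3DF_50 replicate 1 was also above that of 2DC_L replicate 2 (0.000196%). COL6A3, COL7A1, COL10A1 and COL23A1 shares were higher in 3DF_50 replicate 3 than in 2DC_L replicate 3. The COL7A1 share was also higher in 3DF replicate 2 than in 2DC_L replicate 3 (0.00285% against 0.00265%). The shares of COL8A1, COL8A2, COL9A3, COL12A1 and COL14A1 stayed lower in every pairing. The pairings are not separate, since they were formed from 4 embedded and 4 coated libraries of 3 prefixes (E3, E6 and E7), with 3DF_50 replicate 1 and 2DC_L replicate 3 entering more than once. The log2 differences within prefixes ran from -2.94 to -1.20 for COL14A1, from -2.29 to -1.27 for COL8A2, from -2.03 to -0.92 for COL8A1 and from -2.04 to -0.13 for COL7A1. With the prefix as a term, COL7A1 lost its call in 3DF against 2DC (-1.14, adjusted p = 0.106), while COL8A1 (-1.05, adjusted p = 0.00163), COL8A2 (-1.26, adjusted p = 0.000841) and COL14A1 (-1.60, adjusted p = 0.00162) were called. COL23A1 changed sign under this term, from 0.84 to -0.092, and was called in neither fit.

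Genes that act with these collagens were read from lists. Of the other nonfibrillar collagens, 5 of the 10 analysed had enough reads in 3DF against 2DC. COL16A1, another fibril-associated type, was abundant (mean FPKM of 551 ± 71.7 for 2DC, 558 ± 55.0 for 2DF and 536 ± 135 for 3DF) and was called in none of the 10 pairs, with a log2 fold change of -0.047 in 3DF against 2DC (SE 0.21, 95% interval -0.53 to 0.43, adjusted p = 0.903). It is named because its level stands out and was chosen after its values were seen. The other 4 averaged under 1 FPKM in 2DC and 3DF. COL17A1, an epithelial hemidesmosome collagen, was called higher in 3DF (0.861 against 0.114 FPKM in 2DC, log2 fold change 2.94), in the same libraries in which corneal epithelium markers were higher. COL15A1 (0.364 FPKM in 2DC, 0.0222 in 3DF) and COL28A1 (0.198 and 0.0226 FPKM) were called lower, with at most 6 counts in any 3DF library. None of the list was called in 2DF against 2DC (1 of 5 at an unadjusted p of 0.05) or in 3DF against 2DF (0 of 3).

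Of 7 anchoring zone genes tested, the partners of type VII collagen at the basement membrane, 2 were called higher in 3DF against 2DC. These were COL17A1 and TLL1, a protease that can process procollagens, with 6.50 FPKM in 3DF and 0.743 in 2DC (log2 fold change 3.11, SE 0.28, adjusted p = 0.000302). TLL1 was also higher in 3DF against 2DF (2.95, SE 0.24, adjusted p = 0.000482), the only call among the 7 there, and none was called in 2DF against 2DC (5 of 7 at an unadjusted p of 0.05). The list's median log2 fold changes in 3DF against 2DC, 2DF against 2DC and 3DF against 2DF were 0.53, 0.18 and 0.49.

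All 9 Descemet membrane genes, the neighbours of type VIII collagen in that layer, were tested, and 6 were lower in 3DF against 2DC. These were NID2, a nidogen that links laminin and type IV collagen (0.919 against 35.03 FPKM, log2 fold change -5.26), the type IV chains COL4A3 (-2.62) and COL4A4 (-2.00), perlecan HSPG2 (-1.44), the collagen-binding SPARC (-1.19) and the laminin chain LAMA5 (-1.06). In 2DF against 2DC 5 were lower, NID2 (-3.94), COL4A3 (-1.74), COL4A4 (-1.34), HSPG2 (-1.07) and NID1 (-1.03), and in 3DF against 2DF 1 was, NID2 (-1.30). The list's medians in these comparisons were -1.19, -1.03 and -0.36. The study describes several of these genes from the same libraries, so their direction is not independent evidence.

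Of 6 cartilage genes tested, the setting in which types IX and X are best known, none was called in 3DF against 2DC with edgeR (1 at an unadjusted p of 0.05). The proteoglycan ACAN was higher in 2DF against 2DC (1.33 against 0.273 FPKM, log2 fold change 2.28, SE 0.38, adjusted p = 0.00571) and lower in 3DF against 2DF (-1.88, SE 0.46, adjusted p = 0.0383), the same comparisons in which COL10A1 rose and fell. Not all of the list moved as ACAN did. Of the 6, 4 had positive and 2 negative log2 fold changes in 2DF against 2DC. In 3DF against 2DF 1 was positive and 5 were negative. RUNX2 had its lowest condition mean in 2DF (7.88 FPKM, with 9.26 for 2DC) and its highest in 3DF (12.99 FPKM). COL2A1 averaged less in 2DF (0.739 FPKM) than in 2DC (1.01 FPKM). Neither RUNX2 nor COL2A1 was called in these comparisons. The list's medians were -0.23, 0.28 and -0.58.

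Of 11 binding partners of types VI, XII and XIV, 2 were higher and 3 lower in 3DF against 2DC. The type VI receptors ANTXR1 (1.22, SE 0.14, adjusted p = 0.000959) and ANTXR2 (1.20, SE 0.12, adjusted p = 0.000498) rose. The small proteoglycans BGN (-1.50) and FMOD (-1.43) and tenascin TNC (46.4 FPKM in 2DC, 0.396 in 3DF, log2 fold change -6.88) fell. In 2DF against 2DC the proteoglycan CSPG4 (-1.22) and TNC (-3.92) fell, and in 3DF against 2DF BGN (-1.84), FMOD (-1.90) and TNC (-2.94) fell. The list's medians were 0.075, 0.36 and 0.10.

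Of 7 collagen receptors tested, none was called in 3DF against 2DC (3 at an unadjusted p of 0.05). The integrin chain ITGA10 was higher in 2DF against 2DC (1.00, adjusted p = 0.00624) and ITGA11 lower in 3DF against 2DF (-1.33, adjusted p = 0.00343), with list medians of -0.083, 0.018 and -0.08. Of the 7 keratocyte markers AQP1 alone was called, higher in 2DF against 2DC (1.40, adjusted p = 0.0433), and their medians were 0.29, 0.11 and 0.26.

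Of the marker lists of other cells, no corneal epithelium gene was called in 2DF against 2DC (2 tested, 1 at an unadjusted p of 0.05) or in 3DF against 2DF (4 tested, 3 at that p). In the corneal endothelium list SLC4A4 was lower in 3DF against 2DC (-1.27) and ALCAM in 2DF against 2DC (-1.04). CD68 was lower in 3DF against 2DF (-1.36), the only immune marker called. In the vascular endothelium list KDR was higher in 3DF against 2DC (1.30) and 2DF (1.12) and CDH5 in 2DF against 2DC (1.30), while PECAM1 was under 1 FPKM in every library. No Schwann cell marker was called in these 3 comparisons (2 of 3 tested were at an unadjusted p under 0.05 in 3DF against 2DF and 0 in the others).

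The genes whose pattern was most like that of each member were found by Pearson's r of log2(FPKM + 1) over the 15 libraries among 9688 genes with a mean of at least 1 FPKM, as a description, since libraries of a condition share that condition. COL12A1 and COL14A1 were near each other (r = 0.988), and COL14A1 was nearest to COL4A4 (0.992), followed by COL12A1 and GPX7 (0.987). COL12A1 was also near SCRN1 (0.985) and COL4A4 (0.983). COL8A1 was nearest to FKBP10, a collagen chaperone (0.991), then ARSE (0.989) and COL14A1 (0.984). COL8A2 was nearest to FMOD, a fibril-binding proteoglycan (0.992), then FNDC1 (0.986) and CNRIP1 (0.982), and its r with COL8A1 was 0.856.

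COL9A3 was nearest to SMTNL2 (0.97), GPR39 (0.957) and LYPD1 (0.955). COL7A1 was nearest to ADCY7 (0.949), MEDAG (0.941) and EDEM1 (0.919), and COL10A1 to NEDD4L (0.937), SGCA (0.918) and KCNG1 (0.916). The nearest genes of COL6A3 were its assembly partner COL6A1 (0.843), HPCAL1 (0.81) and AUTS2 (0.774), and those of COL23A1 were C1QTNF5 (0.861), ANGPTL7 (0.86) and ERF (0.856), lower values than for the other members. Among the members, r ran from -0.20 for COL9A3 with COL23A1 to 0.99 for COL12A1 with COL14A1.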

How the data were processed

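The authors aligned reads to oryCun2 with HISAT2 2.0.5 and counted them per gene with featureCounts 1.5.0-p3. The deposited counts are whole numbers without normalization, and the deposited FPKM values are those counts per gene length and per a library size that the authors chose. Whether counting used strand is not given in the sources used here. Conditions were read from the library titles. The study describes replicates as separate experiments. Library-name prefixes were used only in the alternative and description named for them.

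For each of the 10 pairs of conditions, edgeR 4.0.16 (R 4.3.3) was fitted to the counts of the 6 libraries over the whole table, with a two-sided quasi-likelihood F test, TMM and filterByExpr (minimum count 10), and tested on simulated data first. A call needs an adjusted p (Benjamini-Hochberg, over the genes tested) no higher than 0.05 and an absolute log2 fold change no lower than 1. Alternatives were DESeq2 1.42.0, its size factors, library totals only, no filter, all 15 libraries in the fit, a replicate block, the prefix as a term, limma 3.58.1 with pseudocounts of 1 and 0.1 on log2 FPKM (genes averaging 0.1 FPKM or more), no limit on the fold change, and each library left out in turn. Library totals without the 10 largest genes were added after seeing the data. Figures were drawn with Python 3.11.15, pandas 2.3.3 and matplotlib 3.10.9.

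Named genes were all members and their assembly partners, list genes called in 3DF against 2DC, 2DF against 2DC or 3DF against 2DF, marker genes, and the 3 genes nearest to each member. COL16A1 and RUNX2 were named after their values were seen. Members and lists were chosen with earlier results of these data known. KRT14, KRT24, ALDH3A1, PTGDS, LYZ, DST, COL18A1, COL20A1, LAIR1 and GP6 were not analysed here.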

Additional observations from a re-analysis of the deposited data

How the results depend on the processing

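Over the 10 pairs 39 of 90 tests of members gave a call, and 39 did with DESeq2, with its size factors in edgeR and with all 15 libraries in the fit, 40 without the filter, 37 without the 10 largest genes in the library totals, 36 and 29 with limma on log2(FPKM + 0.1) and log2(FPKM + 1), 33 with library totals only, 48 without the limit on the fold change and 21 with the prefix as a term. The cause of these differences was not tested. With the prefix term the counts were 0 in place of 3 in 2DF vs 2DC, 3DF vs 2DF and 2DF vs 2DC_L, 0 in place of 1 in 3DF vs 3DF_50, 4 in place of 7 in 3DF_50 vs 2DF and 3 in place of 5 in 3DF vs 2DC_L. With limma on log2(FPKM + 1) they were 1 in 2DF vs 2DC, 1 in 2DF vs 2DC_L and 0 in 3DF vs 3DF_50, which also gave 0 with log2(FPKM + 0.1). Library totals only gave 3 in 3DF vs 2DC_L, and no limit on the fold change gave 5 in 2DF vs 2DC and 5 in 2DF vs 2DC_L. Leaving out a library gave 0 to 2 in 3DF vs 3DF_50 and 1 to 3 in 2DF vs 2DC_L, and stayed within 1.5 times the count in the other pairs. Scaling by library totals moved the all-gene median of the log2 fold changes from 0.012 to 0.19 in 3DF vs 2DC, where 649 genes were then called higher and 475 lower in place of 437 and 583, and from 0.012 to 0.37 in 3DF_50 vs 2DC.

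Replicate numbers are shared between conditions. In no pair did the deviations of all 3 same-numbered pairs of libraries correlate above 0.1 (correlations from -0.18 to 0.32), so the numbers were not taken to pair the samples. All 3 correlations were positive in 2DC vs 2DC_L (0.32, 0.064 and 0.11) and in 3DF_50 vs 2DC_L (0.14, 0.075 and 0.26). Some same-numbered libraries also share a name prefix, namely replicates 1 and 2 of 2DC and 2DC_L (0.32 and 0.064) and replicate 3 of 2DC_L and 3DF_50 (0.26). The replicate block gave 39 calls, with 4 in place of 3 in 3DF vs 2DF (COL9A3, -1.09, adjusted p = 0.032) and 2 in place of 3 in 2DF vs 2DC_L (COL10A1, 1.46, adjusted p = 0.07), and changed no other call.

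Directions that turned belonged to values that were not called. With the prefix term COL10A1 became 0.058 in 3DF vs 2DC and 0.013 in 3DF vs 2DC_L, COL23A1 -0.092 in 3DF vs 2DC, -0.41 in 3DF_50 vs 2DC and -0.13 in 3DF_50 vs 2DC_L, and COL6A3 -0.078 in 2DF vs 2DC, -0.066 in 2DF vs 2DC_L and 0.16 in 3DF vs 2DF. With library totals only COL6A3 became 0.033 in 3DF vs 2DF, 0.13 in 3DF_50 vs 2DC and 0.077 in 3DF_50 vs 2DC_L, and without the 10 largest genes 0.0084 in 3DF vs 2DF. With a library left out, COL6A3 ranged from -0.059 to 0.26 in 3DF vs 2DC, from -0.18 to 0.12 in 3DF vs 2DF, from -0.098 to 0.22 in 3DF vs 2DC_L and from -0.029 to 0.21 in 2DF vs 2DC_L, and COL23A1 from -0.15 to 0.73 in 3DF_50 vs 2DC_L. Leaving out a library ended 24 calls, given with each gene above, and added 11. COL10A1, with 23 to 265 counts a library, and COL23A1, with 32 to 134, had the fewest reads among the members and are the least precise at this depth.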
